A study of Cucumis melo with 30 samples.

Results

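The genes described here were well counted in melon fruit at day 5 after anthesis, the opening of the flower, and nearly absent from day 15 on. A gene was taken when its mean level was 10 CPM or more at day 5 in both cultivars and under 1 CPM in each of the 8 later groups, where CPM is 1000000 times its count over the library's total. Of the 27427 genes in the deposited table, 72 met these limits. Because they were chosen by the mean CPM of all 10 groups, their drop after day 5 is a description and carries no test. The choice set a lower limit for both cultivars at day 5 but asked for no difference between them. It used group means and not the spread among libraries, though a single high library could carry a mean past the limit. It held every later group under 1 CPM, so what is said of the later days is bounded by it.

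The RNA came from fruit of the oriental melon, a form of Cucumis melo, in the cultivars HDB-OF and YMR-WF, called HDB and YMR from here on. Fruit was taken at days 5, 15, 25, 30 and 35 after anthesis, with 3 libraries for each cultivar and day and 30 in all. The labels give no treatment and no genotype beyond the cultivar name, and name neither the fruit nor the plant behind a library. The p-values here measure only the spread between samples, which may be technical. Total counts lay between 17299247 and 23261097 per library.

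Fruit growth in melon begins, after pollination, with a period rich in cell division, which gives way to cell enlargement and later to ripening with sugar accumulation and, in many types, changes of colour and aroma. A young fruit also holds ovules and early seeds beside the flesh and rind. In RNA taken from many cells together, fewer cells of a type and less RNA per cell cannot be told apart. The genes carry only identifiers, which the sources used here do not pair with names, functions or positions, so neither the roles of the 72 genes nor the markers of the fruit's tissues could be looked up. Antisense genes, overlapping genes and near-identical copies could not be recognised, so reads may be shared with them.

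At day 5 the 72 genes were spread over a wide range of levels. In HDB the median of their group means was 27.6 CPM, from 10.03 to 628, and in YMR it was 20.7 CPM, from 10.1 to 456. For comparison, the 10932 genes at 10 CPM or more in both day 5 groups had a median of 42.2 CPM in HDB. By the mean of both cultivars, 26 of the 72 genes lay between 10 and 20 CPM, 33 between 20 and 50, 7 between 50 and 100, and 6 at 100 or above. The 3 highest genes, MELO3C024163, MELO3C025369 and MELO3C021150, held 34.9% of the summed level in HDB and 34.6% in YMR.

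**Figure D1:**
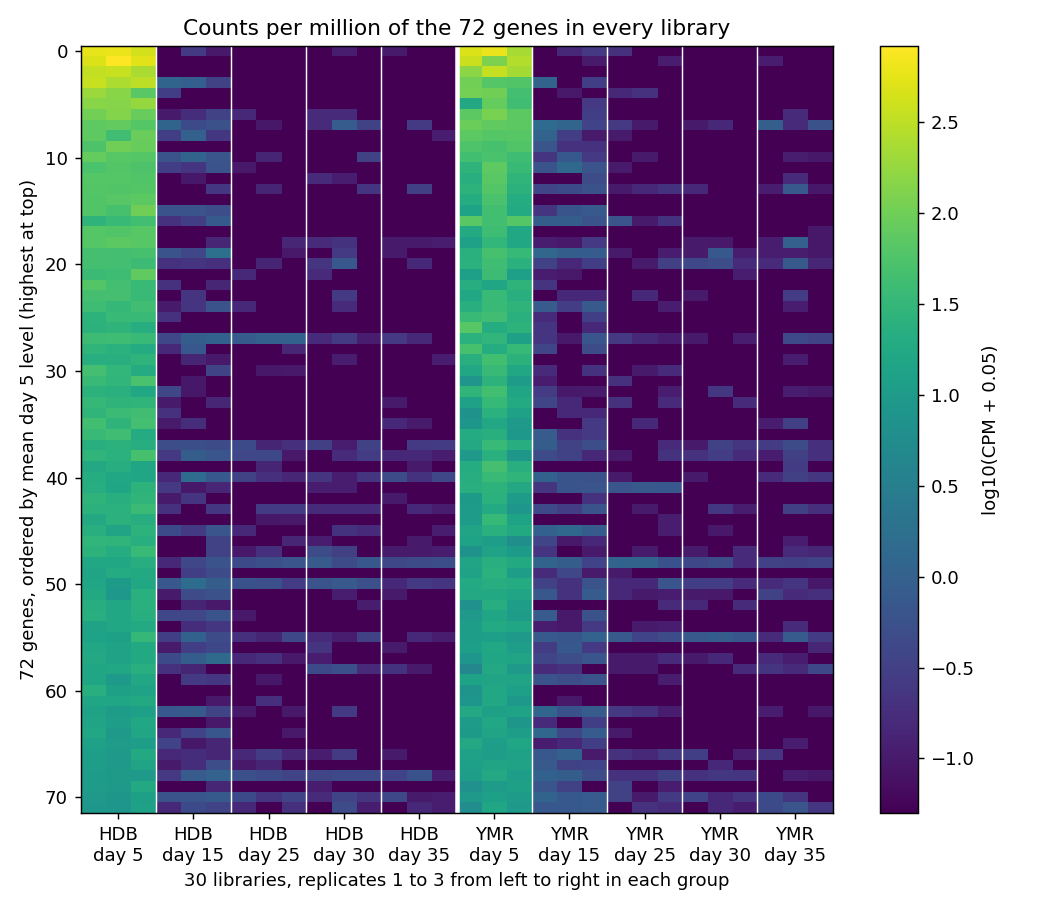
Level of each of the 72 genes (rows, ordered by mean day 5 level) in each of the 30 libraries (columns, replicates 1 to 3 within each group), coloured by log10 of CPM plus 0.05. The 6 day 5 libraries stand out in every row because the genes were chosen for it, and most of what remains later lies in the day 15 columns.

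Summed over the 72 genes, the HDB libraries of day 5 held 4280, 4447 and 4073 CPM, and the YMR libraries 2673, 3406 and 2248 CPM. Every HDB library was thus above every YMR library. At day 15 the sums were 17.04 ± 4.4 CPM in HDB and 22.4 ± 4.17 in YMR (SD, n = 3), and from day 25 on the group means lay between 2.46 and 4.98 CPM. With day 15 totals under 3 counts in a group raised to that floor, the median gene was 273 times as high at day 5 as at day 15 in HDB and 126 times in YMR, and the lowest ratios were 14.2 and 12.8. At day 15, 23 genes in HDB and 15 in YMR were at or under this floor, 12 and 8 of them with 0 counts, and the floor covers counting error only.

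**Figure D2:**
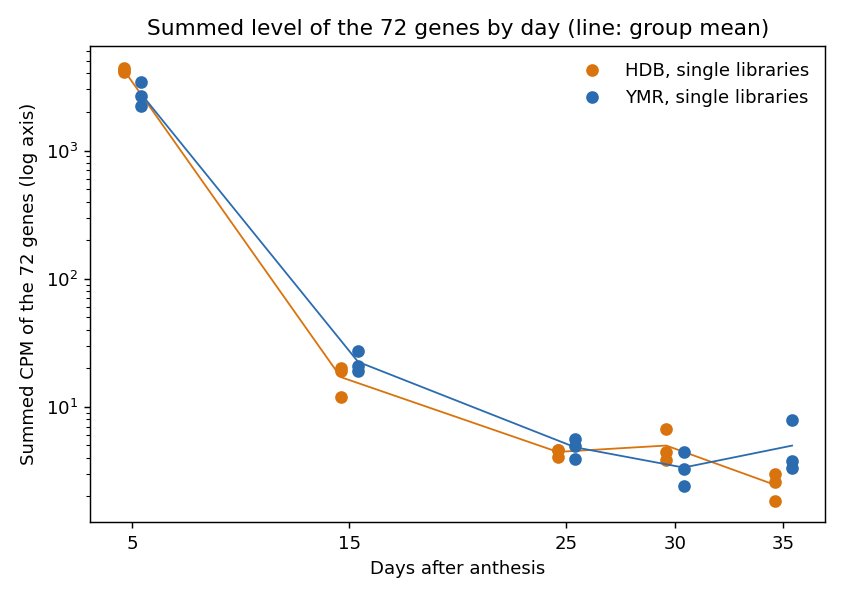
Summed CPM of the 72 genes (log axis) in each library against days after anthesis, HDB in orange and YMR in blue, with lines through the group means. The sums go from 2248 CPM or more at day 5 to group means of 17.04 and 22.4 CPM at day 15.

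The 6 genes with the highest day 5 level show how differently the cultivars could stand. MELO3C024163, the highest by the mean of both cultivars, had 575, 631 and 421 CPM in HDB and 494, 639 and 236 CPM in YMR. The cultivars overlapped, with replicate 3 lowest in both, and the log2 difference, taken as YMR minus HDB throughout, came to -0.32 (SE 0.30, edgeR adjusted p = 0.486). After day 5 this gene kept 17 counts in all, spread over 7 of the 24 later libraries.

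MELO3C025369 had 508, 834 and 543 CPM in HDB and 385, 123 and 269.6 CPM in YMR. All HDB libraries were above all YMR libraries, and replicate 2 was the highest in HDB and the lowest in YMR. Its log2 difference was -1.35 (SE 0.34, edgeR adjusted p = 0.012). The call was lost without replicate 2 of HDB day 5, with a log2 difference of -1.05, and also in DESeq2 and with only the day 5 libraries in the fit. Only 3 counts of this gene were found after day 5, all in YMR.

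MELO3C021150 had 348, 367 and 245 CPM in HDB and 154, 353 and 227 CPM in YMR, which overlapped (log2 difference -0.45, SE 0.31, edgeR adjusted p = 0.353). It is one of 3 genes with no count in any of the 24 later libraries, the others being MELO3C003433 and MELO3C023292. No count in the 3 libraries of HDB day 15 allows a level of up to 0.046 CPM. The description of the set as read only at day 5 is therefore literal for 3 of its 72 genes, and the other 69 had at least 1 count later.

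MELO3C002341 differed most between the cultivars among these 6, and among all 72. It had 364, 257 and 320.0 CPM in HDB and 107, 63.8 and 60.2 CPM in YMR, so that every HDB library lay far above every YMR library. This gave a log2 difference of -2.09 (SE 0.39, edgeR adjusted p = 0.0035). DESeq2 gave the same size of difference, -2.08, but an adjusted p of 0.353, and its call was kept in the other alternatives tried.

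MELO3C025120 had 193, 149 and 68.1 CPM in HDB and 109, 102 and 45.1 CPM in YMR, with replicate 3 lowest in both cultivars and overlapping groups (log2 difference -0.74, SE 0.40, edgeR adjusted p = 0.218). MELO3C007774 had 148, 145 and 178 CPM in HDB and 17.5, 84.7 and 42.9 CPM in YMR. Its YMR libraries differed widely among themselves, yet all lay below HDB. The log2 difference of -1.77 (SE 0.49, edgeR adjusted p = 0.033) was past the threshold here and not in 7 alternatives, among them DESeq2 and the fits without any single HDB library of day 5.

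**Figure D3:**
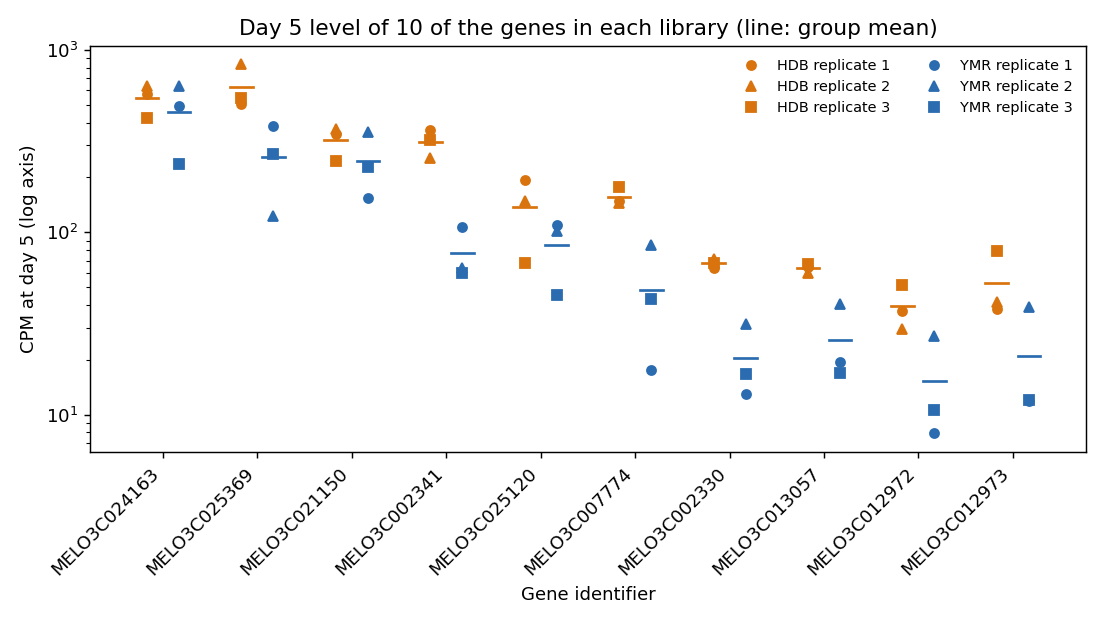
Day 5 CPM (log axis) of 10 of the genes in each library, HDB in orange and YMR in blue, with replicates 1, 2 and 3 as circles, triangles and squares and a line at the group mean. MELO3C002341 shows the widest gap between cultivars, and in MELO3C012972 and MELO3C012973 replicate 2 is the highest YMR library.

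At day 5 all genes called among the 72 differed in the same direction. Of the 72, 14 were lower in YMR and 0 higher at an edgeR adjusted p under 0.05 over all 18426 genes tested, which is 19.4% of the 72. Among all genes tested, 21.8% were called, 11.4% lower and 10.4% higher, and among the 10932 genes at 10 CPM or more in both day 5 groups 23.1% were called, 11.5% lower and 11.6% higher. The share called was thus near the background. Its split between directions was uneven, which was not tested. At an unadjusted p under 0.05, 23 genes were lower and 0 higher, where 18.1% of all genes tested were lower and 16.1% higher. The 14 differences were all at least 2-fold, with log2 values from -1.16 to -2.09, where 7.8% of all genes tested and 4.22% of the 10932 genes were called with a 2-fold difference.

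The median log2 difference of the 72 genes was -0.46, against -0.01 for the 10932 genes and -0.03 for all genes tested. By mean CPM, 52 genes were higher in HDB and 20 in YMR, while 43.7% of the 10932 genes were higher in HDB. In 20 genes (27.8%) all HDB libraries were above all YMR libraries, an arrangement found in 13% of the 10932 genes. The reverse held in 3 genes, where 22.3% of the 10932 genes showed it, and in 49 the cultivars overlapped. These 3 were MELO3C006538, MELO3C002277 and MELO3C010604, named after their values were seen. MELO3C006538 had 20.1, 17.1 and 15.0 CPM in HDB and 21.6, 35.5 and 29.2 CPM in YMR, close to touching in 1 library each (log2 difference 0.66, SE 0.35, edgeR adjusted p = 0.184). The highest difference toward YMR, a log2 value of 0.66 in MELO3C015831, also did not pass the test (SE 0.34, edgeR adjusted p = 0.191).

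**Figure D4:**
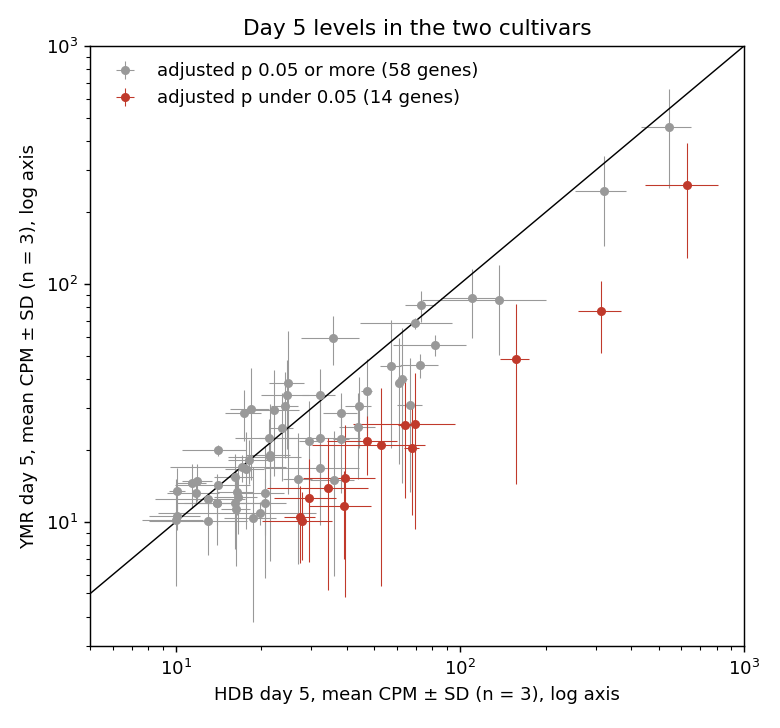
Mean day 5 CPM of each of the 72 genes in YMR against HDB (log axes; bars are SD, n = 3), with the line of equal level. The 14 genes with an edgeR adjusted p under 0.05, in red, all lie below the line.

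Among the 14 genes, MELO3C002330 and MELO3C013057 were called under every alternative tried, and are named here after their values were seen. MELO3C002330 had 63.8, 71.5 and 67.5 CPM in HDB and 12.9, 31.4 and 16.8 CPM in YMR (log2 difference -1.80, SE 0.39, edgeR adjusted p = 0.0023). MELO3C013057 had 64.7, 60.0 and 66.9 CPM in HDB and 19.3, 40.7 and 16.9 CPM in YMR (log2 difference -1.38, SE 0.31, edgeR adjusted p = 0.0098). In both genes the HDB libraries lay close together and well above YMR, whose replicate 2 was the highest.

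MELO3C023203, second in size of difference among the 14, had 43.8, 27.9 and 45.2 CPM in HDB and 8.58, 16.99 and 9.37 CPM in YMR. Its groups did not overlap, with a log2 difference of -1.80 (SE 0.42, edgeR adjusted p = 0.0053), which DESeq2 put at an adjusted p of 0.277. At the other end, the fitted log2 differences of MELO3C004785 and MELO3C002509 were within 0.01 of 0 and changed sign between alternatives. Their SE was 0.35 and 0.38.

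The count of 14 depended on single libraries. Without replicate 3 of HDB day 5 it was 7, without replicate 1 or 3 of YMR day 5 it was 7 and 6, and without replicate 2 of YMR day 5 it was 18, of which 13 were among the 14. DESeq2 called 9, of which 8 were among the 14, all of them lower in YMR, and the fit with day 5 libraries alone called 10 lower and 1 higher, the latter being MELO3C006538.

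Libraries of one group also differed more over these genes than over others at day 5. The coefficient of variation over 3 libraries had a median of 17.7% in HDB and 37.6% in YMR, against 11.2% and 11.9% for the 10932 genes. Replicate 2 of YMR was the highest YMR library for 57 of the 72 genes (79.2%) and for 39.8% of the 10932 genes. Its median ratio to the mean of the other YMR libraries was 1.6 for the 72 genes and 1.01 for the 10932.

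That library was at least 2-fold above the mean of the other 2 in 21 of the 72 genes (29.2%), where 0.64% of the 10932 genes were. The YMR mean that had to reach 10 CPM includes this library, so a high value in it could bring a gene in. Without it the same limits took 62 genes, of which 59 were among the 72. How far this raised the share was not tested. Of the 14 genes lower in YMR, 8 were among these 21. The library did not stand high throughout, since it lay below the mean of the others in 12 genes, from a ratio of 0.377 in MELO3C025369 to one of 3.26 in MELO3C012973. In HDB, replicate 3 was the highest for 37 genes (51.4%, against 23.0% of the 10932). What set these libraries apart was not tested, and no date or batch is labelled.

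**Figure D5:**
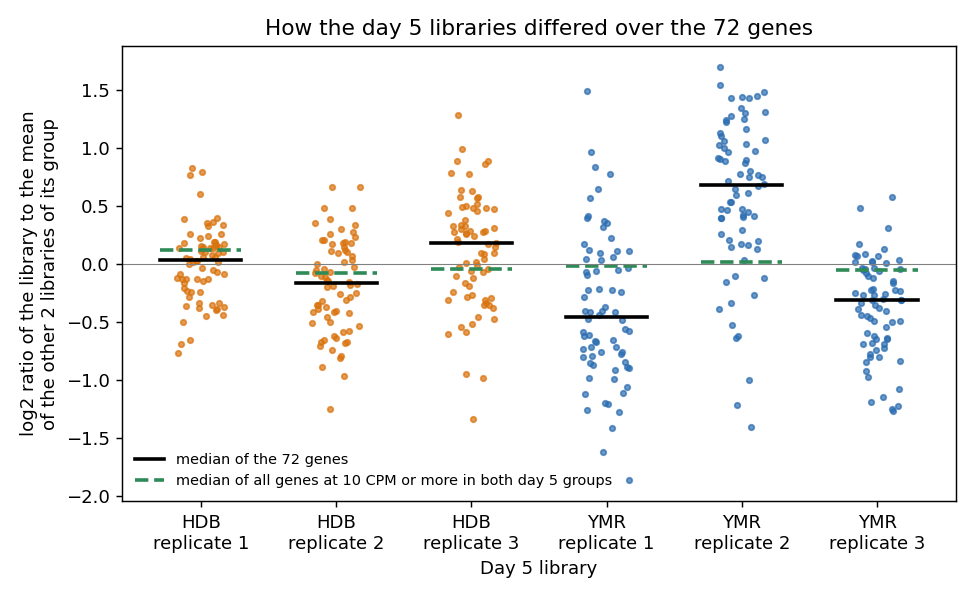
Log2 ratio of each day 5 library to the mean of the other 2 libraries of its group, 1 point per gene for the 72 genes, with their median (black line) and that of the 10932 genes at 10 CPM or more in both day 5 groups (green dashes). Most of the 72 genes, though not 12 of them, sit above 0 in YMR replicate 2, with a median ratio of 1.6, while the green dashes stay between -0.07 and 0.12 in all 6 libraries.

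The most variable genes in YMR were MELO3C012973 and MELO3C007774, with coefficients of variation of 74.5% and 70.2%. In HDB they were MELO3C015123 (56.4%) and MELO3C025120 (46.4%). MELO3C015123 had 14.1, 12.7 and 32.7 CPM in HDB and 11.1, 11.98 and 9.62 CPM in YMR, so replicate 3 of HDB held more than the other HDB libraries together.

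In all, 3 pairs of genes had consecutive identifiers, a feature looked for in runs of 3 or more, of which there was none, and these pairs were named after their values were seen. MELO3C012972 had 36.9, 29.5 and 51.4 CPM in HDB and 7.90, 27.1 and 10.7 CPM in YMR. MELO3C012973 had 38.2, 41.3 and 79.1 CPM in HDB and 11.9, 39.0 and 12.04 CPM in YMR. Both genes were lower in YMR (log2 differences -1.43 and -1.41, edgeR adjusted p = 0.029 and 0.033), and both were highest in replicate 3 of HDB and replicate 2 of YMR. The other pairs, MELO3C005699 with MELO3C005700 and MELO3C011266 with MELO3C011267, had log2 differences between -0.16 and -0.69 that did not pass the test. Identifiers give no position here, and whether the members of a pair share reads is not known.

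After day 5 the 72 genes together kept 3894 counts in the 24 later libraries, and 62.3% of these were at day 15. Days 25, 30 and 35 held 14.7%, 12.1% and 10.9%. The highest later mean was at day 15 for 55 genes, 33 in YMR and 22 in HDB. There were 13 genes with no count after day 15, and 17 with under 10 counts over all later libraries. In 21 genes more than 50% of the later counts came after day 15.

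Calls among the later days are given as a description of single genes, and nothing is read from how many there are. The 72 genes passed the low-count filter through day 5, were held under 1 CPM afterwards, and in the fit to all libraries take their spread in part from day 5, where they are high. The adjusted p-values given for later days are therefore weak evidence. Few of these calls were kept when the compared groups were fitted alone. In HDB, 12 of the 72 genes had 0 counts at day 15, 36 at day 25 and 42 at day 35, and in YMR 8, 28 and 35. A fold given below as at least a value sets the observed mean of the counted group against a floor of 3 counts. The floor stands for the group with 0 counts. The error of the observed mean is left out, so such a fold is no lower bound on the true change.

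At day 15 the fit to all libraries called 6 of the 72 genes higher and 1 lower in YMR at an edgeR adjusted p under 0.05, where 40.9% of all genes tested were called, 20.4% higher and 20.5% lower. MELO3C013958 had 0 counts in HDB and 14, 3 and 4 in YMR, at least 8.07-fold higher (edgeR adjusted p = 0.020), a call lost in DESeq2 and without replicate 1 of YMR day 15, which held most of its counts. MELO3C024499 had 0 counts in HDB and 11, 3 and 3 in YMR, at least 6.52-fold higher (edgeR adjusted p = 0.012).

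The 1 gene lower in YMR was MELO3C002277, with 13, 35 and 18 counts in HDB and 5, 3 and 11 in YMR. Its groups did not overlap (log2 difference -1.61, SE 0.47, edgeR adjusted p = 0.0076), but without replicate 2 of HDB day 15 its adjusted p was 0.068. Without that library 3 genes were called in all, without replicate 3 of HDB day 15 it was 14, and without replicate 1 of YMR day 15 it was 4. With only the day 15 libraries in the fit, 22 of the 72 genes had counts enough to be fitted and 0 were called, with 2 higher and 1 lower at an unadjusted p under 0.05, while DESeq2 called 6 higher and 3 lower.

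Summed over the 72 genes, the day 15 levels of 17.04 CPM in HDB and 22.4 CPM in YMR were followed at day 25 by 4.44 ± 0.31 and 4.82 ± 0.872 CPM (SD, n = 3). In HDB the fit to all libraries called 23 of the 72 genes lower at day 25 and 0 higher, with 24 and 0 at an unadjusted p under 0.05 and 25 and 0 in DESeq2, where 71.0% of all genes tested were called, 39.0% falling and 32.0% rising. In YMR it called 25 lower and 1 higher, where 67.4% were called, 35.0% falling and 32.4% rising. In both cultivars 17 genes were called lower, 6 more in HDB only and 8 more in YMR only. This overlap was not counted over all genes tested, so nothing is read from it.

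MELO3C002341 went from 22, 20 and 6 counts in HDB at day 15 to 0 in every HDB library of day 25, at least 16.1-fold lower (edgeR adjusted p = 0.0084). Its YMR libraries had 19, 0 and 5 counts at day 15 and 0 at day 25, which did not pass the test (edgeR adjusted p = 0.059). MELO3C012241 went from 11, 13 and 10 counts to 0 in HDB, at least 11.3-fold down. In YMR it went from 3, 12 and 14 counts to 0, at least 9.48-fold down (edgeR adjusted p = 0.0068 and 0.017). MELO3C021617 had 13, 6 and 6 counts in YMR at day 15 and 0 at day 25, at least 8.51-fold lower (edgeR adjusted p = 0.0016).

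The 1 gene called higher was MELO3C021319, whose YMR libraries had 3, 12 and 12 counts at day 15, then 12, 14 and 12. The groups overlapped, and its log2 difference of 1.07 (SE 0.44, edgeR adjusted p = 0.042) lost its call in 7 alternatives, with an adjusted p of up to 0.319 under total-count scaling. That scaling moved the median log2 change of all genes in YMR from -0.07 to -0.66, and in HDB from -0.13 to -0.36. When the fit held the compared groups alone, 6 of the 72 genes could be fitted in HDB, of which 1 was called, and 10 in YMR, of which 6 were called.

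Between day 25 and day 35 most of the 72 genes had too few counts for a change to be seen. In HDB 2 were called lower and 0 higher, with 3 and 0 both at an unadjusted p under 0.05 and in DESeq2, where 41.1% of all genes tested were called, 21.0% falling and 20% rising. MELO3C024572 went from 15, 21 and 21 counts at day 25 to 4, 2 and 0 at day 35, a ratio of 8.49 (log2 difference -3.02, SE 0.73, edgeR adjusted p = 0.0018), and was called under every alternative tried. The other, MELO3C012014, had 6 counts at day 25 and 0 at day 35 (edgeR adjusted p = 0.032). Its day 25 mean was 1.72-fold over the 3-count floor of day 35, which leaves out the counting error of the 6 counts. The call was lost without any of 5 single libraries.

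In YMR 4 genes were called lower and 2 higher over the same days, where 55.8% of all genes tested were called, 31.8% falling and 24% rising. MELO3C021319, whose counts of 12, 14 and 12 at day 25 are given above, had 0 counts at days 30 and 35. By day 35 it was down at least 12.6-fold (edgeR adjusted p = 1.5e-05). As at all later days, the p-values here take their spread in part from day 5 and are weak evidence. MELO3C015831 went from 12, 1 and 3 counts to 0, at least 5.22-fold lower (edgeR adjusted p = 0.0086), a call lost without replicate 1 of YMR day 25. The others called lower were MELO3C016306, from 21, 21 and 10 counts to 5, 5 and 7, and MELO3C010604, from 3, 3 and 5 counts to 0, 1 and 1 (edgeR adjusted p = 0.0018 and 0.017).

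The genes called higher were counted in few reads. MELO3C002330 had 0 counts at day 25 and 1, 17 and 1 at day 35 (edgeR adjusted p = 0.013). Its day 35 mean was 6.64-fold over the 3-count floor of day 25, but most of these counts were in replicate 2. Without replicate 2 of YMR day 35 its adjusted p was 0.203. MELO3C004785 went from 0, 0 and 2 counts to 4, 8 and 3, a ratio of 7.40 whose exact 95% counting interval runs from 1.75 to 67.9 (edgeR adjusted p = 0.048), and lost its call in 5 alternatives. In the fit to the compared groups alone, 1 of the 72 genes could be fitted in HDB and 2 in YMR, and all of these were called. A gene enters that fit only through higher counts in the compared groups themselves. That all were called is therefore no separate support.

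The change over these steps was also compared between cultivars. The term tested is the log2 change in YMR minus that in HDB. Its sign does not say in which cultivar a gene moved more, since a larger fall in HDB also makes it positive. For day 15 to day 25 the fit to all libraries called 3 of the 72 genes, 2 with a positive term and 1 with a negative term. Of all genes tested 41.4% were called, 22.9% positive and 18.5% negative. For day 25 to day 35 it was 1 gene, with a positive term, where 36.9% of all genes tested were called, 16.2% positive and 20.7% negative. These genes are MELO3C021319, MELO3C015831, MELO3C003428 and MELO3C024572, and rest on few counts. With the compared groups alone, 23 and 3 of the 72 genes could be fitted, and 1 was called in each, MELO3C021319 and MELO3C024572.

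Some genes stayed countable throughout. MELO3C016306 and MELO3C002277 had a count in each of the 24 later libraries, 240 and 186 in all. After day 15, 6 genes reached a group mean of 0.5 CPM or more. MELO3C016306 was the highest of these, with 0.880 CPM in YMR at day 25.

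The limits that chose the genes cut through a continuous range. Just inside the later limit were MELO3C002277, at 0.992 CPM in HDB at day 15, and MELO3C014056, at 0.986 CPM in YMR at day 15. Just outside it were MELO3C005567, at 1.02 CPM in YMR at day 15, and MELO3C025484, at 1.03 CPM in YMR at day 35. At the day 5 limit MELO3C003518 (10.03 CPM) and MELO3C025324 (10.08 CPM) were inside by their lower cultivar mean, and MELO3C004249 (9.93) and MELO3C022244 (9.83) outside. A later limit of 2 CPM would take 109 genes, one of 5 CPM 251 and one of 10 CPM 539. A further 55 genes were under 1 CPM later and reached 10 CPM at day 5 in only one cultivar, 41 in HDB and 14 in YMR.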

How the data were processed

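Raw gene-level read counts of 30 libraries were deposited by the authors as 1 table. HISAT2 and HTSeq are named per the submitters' processing notes. For versions, genome build, annotation and strand, the sources used here give nothing. None of the 27427 identifiers matched a table of 28628 melon genes (USDA_Cmelo_AY_1.0 assembly), so 0 could be named.

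Levels are CPM of total counts, as mean ± SD of 3 libraries. The test was edgeR 4.0.16 in R 4.3.3, a quasi-likelihood F test, two-sided, with filterByExpr (minimum count 10, minimum total 15), TMM scaling, robust fitting and 10 group means over all libraries. Benjamini-Hochberg adjustment ran over all 18426 genes tested, and a gene was called at an adjusted p under 0.05. All 72 genes passed the filter through day 5. The SE is the log2 difference over the square root of F. The biological coefficient of variation was 19.1%. Where a group had 0 counts, the fold sets the observed mean of the other group against 3 counts over the group with 0. The error of that observed mean is not covered. Intervals cover counting error only, and floors only that of the low group. No libraries were identical (chi-square per degree of freedom 7.35 to 118), and the labels give no batch. The test was also run on counts simulated from its own fitted model. That run cannot show how the test behaves where the libraries depart from the model.

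The genes and lists were chosen with earlier results of these data known. Genes named are the 6 highest at day 5, the extremes of each comparison, of library spread and of the limits, and those with no later count. Others named were chosen after their values were seen. Alternatives were RLE and total-count scaling, no filter, DESeq2 1.42.0, a block for the replicate number, a fit to the compared groups alone, and each library left out.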

Additional observations from a re-analysis of the deposited data

Results flagged for a closer look

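Over days 15, 25 and 35, where these genes have few counts, an interaction term (edgeR, YMR minus HDB) in the fit to all libraries was called for 4 combinations of gene and step. These genes passed the low-count filter through day 5 and take part of their spread from it, so the calls are weak evidence. Of the 4 combinations, 3 were in the day 15 to day 25 change, where 41.4% of all genes tested were called. The other 1 was in the day 25 to day 35 change, where 36.9% were. With the compared groups alone, 1 gene was called for each step, MELO3C021319 and MELO3C024572 (edgeR). Genes enter that fit only through higher counts in the compared groups, so it is no separate support.

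For MELO3C021319 the log2 difference in change was 5.09 (SE 1.40, edgeR adjusted p = 0.0081), with 3, 12 and 12 counts at day 15 and 12, 14 and 12 at day 25 in YMR, and 4, 1 and 2 against 0 in HDB. For MELO3C015831 it was 4.93 (SE 1.83, edgeR adjusted p = 0.044), with 3, 6 and 16 counts against 0 in HDB, and 15, 17 and 11 against 12, 1 and 3 in YMR. This call was lost in 11 alternatives.

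For MELO3C003428 it was -4.30 (SE 1.62, edgeR adjusted p = 0.036), with 3, 0 and 4 counts at day 15 and 0, 5 and 5 at day 25 in HDB, and 7, 5 and 11 against 0, 1 and 0 in YMR. This call was lost in 6 alternatives. For MELO3C024572 the day 25 to day 35 difference was 3.74 (SE 1.18, edgeR adjusted p = 0.015), with 15, 21 and 21 counts against 4, 2 and 0 in HDB, and 4, 2 and 1 against 0, 7 and 7 in YMR. It was lost without replicate 2 or 3 of YMR day 35. These values depend on the prior count at such levels and are no bounds.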

How the results depend on the processing

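The number of genes chosen was 46 with a later limit of 0.5 CPM, 109 with 2 CPM, 159 with a day 5 limit of 5 CPM, 35 with 20 CPM and 35 when every library had to pass. Leaving out single libraries gave 62 to 78, 62 without replicate 2 of YMR day 5. On TMM-scaled CPM it was 61, of which 57 were among the 72.

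When the fit held the compared groups alone, it called 0 genes at day 15, where 22 could be fitted. From day 15 to day 25 it called 1 of 6 fitted genes in HDB and 6 of 10 in YMR. From day 25 to day 35 it called 1 of 1 in HDB and 2 of 2 in YMR. For the day 15 to day 25 interaction it called 1 of 23. A gene that could not be fitted could not be called. DESeq2 called 9 at day 5, 10 from day 25 to day 35 in YMR and 5 for the day 25 to day 35 interaction. Leaving out single libraries gave 6 to 18 at day 5, 3 to 14 at day 15, 20 to 23 and 18 to 29 from day 15 to day 25, 1 to 3 and 5 to 7 from day 25 to day 35, and 1 to 4 and 0 to 3 for the interactions. The cause of these shifts was not tested.

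The labels do not say whether libraries of equal replicate number share anything. To look for this, each gene's group mean was subtracted from its log2 of CPM plus 1, over the 10932 genes. What was left in each library was then correlated, not the levels themselves. At day 5 these deviations correlated at 0.07 to 0.54 between same-numbered libraries of the cultivars. Of the 3 HDB libraries, 2 correlated best with their own number. With the replicate number as a block, calls were 17 at day 5, 8 at day 15, 22 and 25, then 2 and 5 over the steps, and 3 and 1 for the interactions.

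Over 27 single-gene values and their alternatives, 269 values kept direction and side of the threshold, 54 lost the call, 1 gained it and 0 of the called values changed sign. The 13 others are sign changes of MELO3C004785 and MELO3C002509 near 0. Alternatives in which a gene could not be fitted or had no adjusted p are not among these 337 values. All of those concern later days, so the tally can overstate how well the later calls held. Low counts after day 5 limit every later comparison.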
